A study of Mus musculus with 36 samples.

Results

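The genes described here were 9 genes of the myelin sheath and of the cells that make it, Mbp, Mobp, Mog, Mag, Cldn11, Mal, Ugt8a, Olig1 and Qdpr, out of 30869 gene symbols on the array. The members were chosen by symbol: every row of the non-normalized array table that carried one of the 9 symbols was taken, which gave 22 probes among 45281 rows, namely 5 each for Mbp and Mobp, 3 for Mal, 2 each for Mog, Mag and Ugt8a, and 1 each for Cldn11, Olig1 and Qdpr. All 9 genes passed the filter on detection in every region through their brightest probe. Of the 22 probes, 20 passed in prefrontal cortex (PFC), 21 in nucleus accumbens (NAc) and 22 in hippocampus (HIP), and the probes that missed it were a dim probe of Mal and a dim probe of Ugt8a.

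The samples came from adult male C57BL/6J mice, a wild-type inbred strain, that were 11 weeks old and received 10 once-daily intraperitoneal injections. The 4 treatments were vehicle (a mixture of saline, PEG-400 and DMSO), Cpd-60 at 45 mg/kg, SAHA at 25 mg/kg and CI-994 at 10 mg/kg, all 3 drugs being inhibitors of histone deacetylases, the enzymes that take acetyl groups off histones. Every group shared the vehicle mixture and the handling, vehicle and Cpd-60 were injected in the same volume, and SAHA and CI-994 in a smaller one. Tissue was taken 1 h after the last injection and the 3 regions were cut out of frozen brain. Each treatment had 6 mice, whose RNA was combined in pairs into 3 pools, so that 36 arrays held 3 pools of each of 12 groups of region and treatment. The doses differed between the drugs, so each drug was compared with vehicle only, and the 3 drugs of a region shared the same 3 vehicle arrays.

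In the brain, oligodendrocytes wrap axons in myelin, a stack of membrane that is held together by a small set of very abundant proteins and that is unusually rich in glycolipids. Myelin lies mostly in white matter tracts, so a piece of brain cut with more of a neighbouring tract carries more myelin transcript. Qdpr is quinoid dihydropteridine reductase, the enzyme that regenerates tetrahydrobiopterin, the cofactor that makes dopamine and serotonin synthesis possible, and it is made in oligodendrocytes as well as in other cells. In pooled tissue, fewer oligodendrocytes and less RNA per oligodendrocyte cannot be told apart.

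Values are log2 quantile-normalized probe intensities, and a difference is a difference of log2 group means. On the 36 arrays the raw median intensity was 82.2 to 108.3, the 95th percentile 349.9 to 1079.7, and the share of probes detected at p of at most 0.01 was 31.9 to 43.3%. SAHA pools 2 and 3 in HIP were dim, with 95th percentiles of 437.7 and 452, against 593.6 to 850.1 on the other HIP arrays. In NAc the Cpd-60 pools spanned the whole range, with 349.9 in pool 1 and 1079.7 in pool 3. Each region lay on 2 BeadChips of 6 arrays, called a and b here. BeadChip a held Cpd-60 pools 1 and 2, vehicle pools 1 and 2, CI-994 pool 1 and SAHA pool 1, and BeadChip b the other 6 pools, in all 3 regions. Every BeadChip held arrays of 1 region, so region and BeadChip cannot be told apart, and within a region neither can BeadChip and mice. The region labels matched their markers under vehicle: 9 of 9 striatal genes were higher in NAc than in PFC, 5 of 6 cortical genes were lower, and 4 of 5 hippocampal genes were higher in HIP than in PFC.

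Short stretches of DNA before the gene starts were read for 7 members with 9 promoters in RefSeq's table for GRCm38.p6. The chromosome of Mbp was left out of this reading, and neither Mbp nor Olig1 was among the 7. The stretches of Mobp and Qdpr are printed because Mobp had the largest region differences below and because Qdpr is the only member that is an enzyme of another pathway. Each is the 250 bases before the annotated start, 5′ to 3′ on the gene's strand. Capitals mark ACAAAG or its reverse complement CTTTGT, a core recognised by Sox proteins such as the oligodendrocyte factor Sox10, and GGGCGG or its reverse complement CCGCCC, the GC box. The Mobp stretch lies on the + strand at chr9:120149492-120149741 and the Qdpr stretch on the - strand at chr5:45450230-45450479.
Mobp: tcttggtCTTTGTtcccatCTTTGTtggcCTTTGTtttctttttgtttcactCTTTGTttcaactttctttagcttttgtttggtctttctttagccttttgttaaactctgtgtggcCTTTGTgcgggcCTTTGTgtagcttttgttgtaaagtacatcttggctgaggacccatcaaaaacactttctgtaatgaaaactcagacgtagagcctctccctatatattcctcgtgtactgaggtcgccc
Qdpr: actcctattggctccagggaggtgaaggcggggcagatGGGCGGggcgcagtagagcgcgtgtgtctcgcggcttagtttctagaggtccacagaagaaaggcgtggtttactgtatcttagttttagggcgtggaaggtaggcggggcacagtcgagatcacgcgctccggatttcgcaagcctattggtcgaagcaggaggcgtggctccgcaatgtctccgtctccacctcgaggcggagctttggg
The Mobp stretch held 6 matches of the Sox core and no GC box, while the Qdpr stretch held 1 GC box and no Sox core. Of the other members read, Mog, Cldn11, Mal and Ugt8a held no Sox core, 2 of the 3 Mag stretches held 1 each, and Ugt8a held 3 GC boxes. Of 32851 promoters of this length, 16.5% held at least 1 Sox core and 32.7% at least 1 GC box, and 1 promoter, that of Mobp, held 6 Sox cores. A match describes the sequence and is not a bound site.

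Under vehicle the myelin genes were lowest in PFC and highest in HIP. All 9 members were higher in HIP than in PFC at a Benjamini-Hochberg adjusted p under 0.05, by a median of 1.21 on the log2 scale, where 10.3% of the 26594 probes tested were called higher and 10.1% lower. NAc stood between them: 8 of 9 members were higher in NAc than in PFC, by a median of 0.65 over the 9, where 6.71% of all probes were called higher and 8.5% lower, and Qdpr was not called. From NAc to HIP 6 of 9 were higher, with a median of 0.63, where 5.95% of all probes were called higher and 7.33% lower. These counts rest on the vehicle pools: 3 members were called in NAc against PFC without vehicle pool 1 and 4 without pool 2, and 2 were called in HIP against NAc without pool 2 and 3 without pool 3, while all 9 were called in HIP against PFC whichever pool was left out. The amount of white matter in each piece was not measured.

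Among the structural proteins, Mbp, the protein that glues the inner faces of the myelin membrane together, read 12.34, 12.08 and 12.23 in the 3 vehicle pools of PFC, 13.07, 12.70 and 12.84 in NAc and 13.30, 13.39 and 13.24 in HIP. The 3 regions did not overlap, and the HIP minus PFC difference was 1.09 ± 0.14 (SE), a 2.13-fold higher intensity (limma, adjusted p = 1.5e-06). Mobp, a small basic protein of compact central myelin, read 8.22, 8.18 and 8.69 in PFC, 9.66, 9.38 and 10.24 in NAc and 10.84, 11.17 and 10.83 in HIP. Its 3 groups were also apart, and its difference between HIP and PFC, 2.58 ± 0.32 (SE), was the largest of the 9 (6-fold, limma adjusted p = 1.1e-06).

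Mog, a protein of the outermost myelin layer, read 8.33, 8.26 and 8.27 in PFC, 9.26, 8.82 and 8.53 in NAc and 9.38, 9.65 and 9.65 in HIP. Mag, the adhesion protein on the inner layer that faces the axon, read 9.63, 9.60 and 10.02 in PFC, 10.85, 10.47 and 9.96 in NAc and 10.68, 10.96 and 11.02 in HIP. Cldn11, the claudin that seals the myelin layers, read 10.88, 10.84 and 11.11 in PFC, 11.86, 11.51 and 11.32 in NAc and 11.89, 12.35 and 12.34 in HIP. PFC lay below HIP in every pool for all 3, and in NAc vehicle pool 1 was the highest and pool 3 the lowest for each of them. The HIP minus PFC difference was 1.27 ± 0.13 (SE) for Mog, 1.14 ± 0.20 for Mag and 1.25 ± 0.15 for Cldn11, all with adjusted p under 0.05. Mag in NAc overlapped both neighbours, and its HIP minus NAc difference of 0.46 ± 0.20 (SE) was not called (limma adjusted p = 0.147).

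Mal, a proteolipid that carries cargo to the myelin membrane, read 8.82, 8.30 and 8.71 in PFC, 9.68, 9.26 and 9.43 in NAc and 9.62, 9.92 and 9.91 in HIP. Ugt8a, the enzyme that makes the myelin lipid galactosylceramide, read 8.02, 7.87 and 7.97 in PFC, 8.81, 8.36 and 8.31 in NAc and 8.86, 9.12 and 8.98 in HIP. Olig1, a transcription factor of the oligodendrocyte lineage, read 8.97, 9.0 and 9.34 in PFC, 9.99, 9.81 and 10.42 in NAc and 10.80, 11.06 and 10.88 in HIP. All 3 were apart between PFC and HIP, and Mal overlapped between NAc and HIP. The HIP minus PFC differences were 1.21 ± 0.20 (SE) for Mal, 1.03 ± 0.16 for Ugt8a and 1.81 ± 0.29 for Olig1. From NAc to HIP, Mal (0.36, 95% interval -0.05 to 0.76, adjusted p = 0.285) and Olig1 (0.84, interval 0.24 to 1.45, adjusted p = 0.0567) were not called by limma. With the pool of mice as a block, paired across regions, Olig1 was called (adjusted p = 0.031) and Mbp was not (adjusted p = 0.061).

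Qdpr read 9.63, 9.69 and 9.52 in PFC, 10.01, 9.55 and 9.37 in NAc and 10.44, 10.36 and 10.41 in HIP. Its HIP pools lay above all others while its PFC and NAc pools overlapped. Qdpr was 0.79 ± 0.15 (SE) higher in HIP than in PFC (limma adjusted p = 5.5e-04) and 0.76 ± 0.15 higher than in NAc (adjusted p = 7.4e-04). Between NAc and PFC it differed by 0.03, with a 95% interval of -0.29 to 0.35 (limma adjusted p = 0.94), and whether this step differed from that of the other 8 members was not tested.

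**Figure D1:**
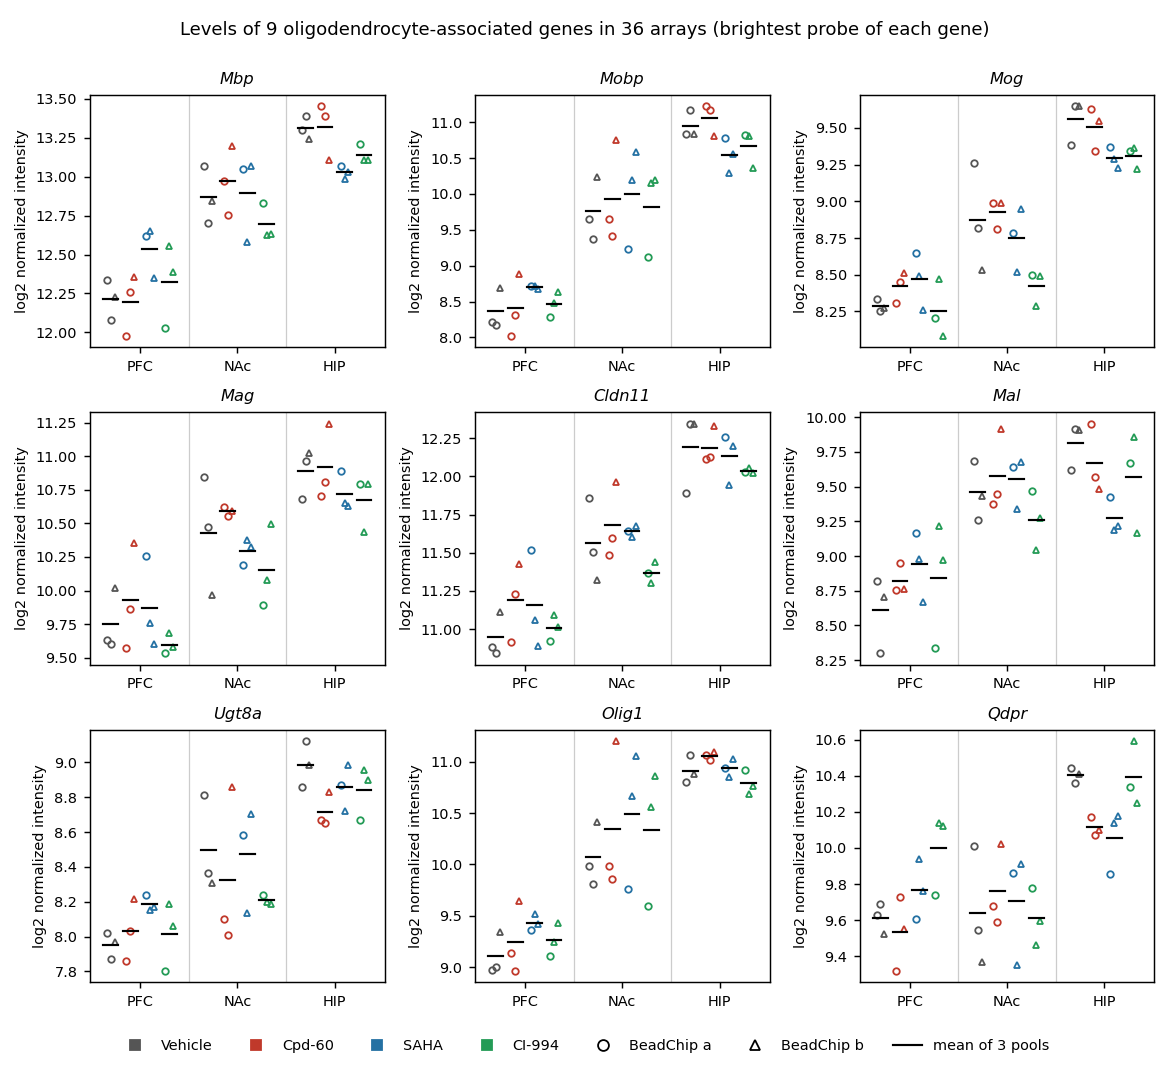
Log2 normalized intensity (y axis) of the brightest probe of each of the 9 genes in all 36 arrays, by region (x axis), with colours for the 4 treatments, symbols for BeadChips a and b and a line at the mean of 3 pools. The HIP points of every gene sit mostly above the PFC points, and in NAc the Mobp and Olig1 points split by BeadChip.

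Among all probes of the members, the called differences ran the same way with 1 exception. Over the 22 probes, 17 were called higher and 1 lower in HIP than in PFC, 14 higher and 1 lower in NAc than in PFC, and 11 higher and none lower in HIP than in NAc. The exception was the Mbp probe ILMN_3011353, which read 9.08, 8.97 and 9.05 in the vehicle pools of PFC, 8.41, 8.30 and 8.21 in NAc and 8.40, 8.33 and 8.39 in HIP. Its PFC pools lay above all 6 others. It was lower in HIP than in PFC by a log2 difference of -0.66 (limma adjusted p = 7.8e-05) and lower in NAc by -0.72 (adjusted p = 1.4e-05), while the other 4 Mbp probes were higher in HIP by 0.65 to 1.23. The Mbp locus makes several transcripts, some of them outside myelin, and which transcript each probe meets was not tested. The 5 Mobp probes ranged from 0.18, on the dimmest and the only one not called, to 2.58.

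**Figure D2:**
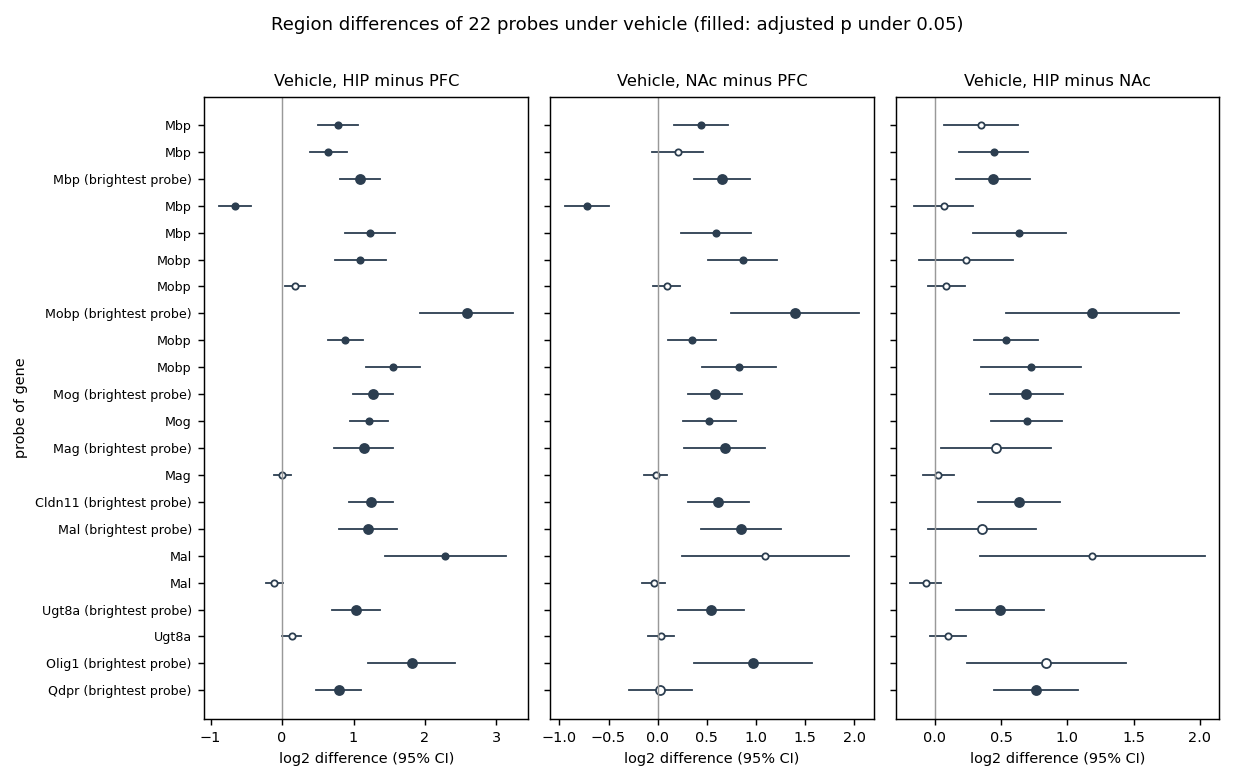
Log2 difference between regions under vehicle (x axis, with 95% interval) for each of the 22 probes (y axis), in 3 panels for the 3 pairs of regions, with filled points for adjusted p under 0.05. Most points lie right of 0, and 1 Mbp probe lies left of 0 at -0.66 and -0.72 in the panels that involve PFC.

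Other genes of the lineage were taken from a list of 56 symbols, of which 47 were on the array and 44 were tested. In HIP against PFC 30 of 44 were higher and 0 lower, with a median of 0.55, and they included Enpp2, the secreted enzyme autotaxin (2.16), Trf, transferrin (1.31), Cnp, the myelin nucleotide phosphodiesterase (0.88), and Sox10 (0.85). Olig2, which also marks precursors, differed by 0.16 and was not called. From PFC to NAc 12 were higher and 2 lower, the latter being Tppp (-0.68) and Lgi3 (-0.46), and from NAc to HIP 17 were higher and 1 lower, Klk6 (-0.27). Of 5 genes of oligodendrocyte precursors, a list that shares Sox10 and Olig2 with the lineage list, 1 was higher in HIP than in PFC and none differed between NAc and PFC.

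Markers of neighbouring tissue did not all move with the same contrast. Of 5 choroid plexus genes 4 were higher in HIP than in PFC, and the mean level of that list was 7.75 to 8.59 in the vehicle pools of HIP and 6.76 to 7.23 in those of PFC. Of 4 thalamic genes tested 1 was lower, with mean levels of 7.02 to 7.09 in HIP and 7.06 to 7.16 in PFC. None of these probes has a true zero on the array, and the part of neighbouring tissue in the member differences was not tested.

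In Qdpr's own pathway, 10 of 12 genes of tetrahydrobiopterin synthesis and use were tested, and 1 was higher in HIP than in PFC, Pts, the synthase of the second step (0.86). In NAc against PFC 3 were higher, namely Pts (0.47), the tyrosine hydroxylase Th (0.40) and the decarboxylase Ddc (0.63), and from NAc to HIP Th (-0.45) and Ddc (-0.54) were lower and Tph2 (0.25) was higher.

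After drug treatment, no member differed from vehicle at an adjusted p under 0.05 in any of the 9 comparisons of drug and region, where 0% of all probes were called in each, and the lowest adjusted p of a member was 0.502. At an unadjusted p under 0.05 limma gave 12 of 81 pairs of member and comparison, while by comparison 1.99 to 9.37% of all probes had such a p, the highest share being that in HIP after SAHA. The members are described by a 1.2-fold rule that keeps the study's thresholds of p under 0.05 and 1.2-fold or more. It takes limma's two-sided p in place of the study's analysis of variance with Tukey's test. When Tukey's test was run here over all treatments, CI-994 included, 2 of the 81 passed, Mbp and Qdpr in HIP after SAHA. The study's own test, run without CI-994, gave Qdpr as lower in HIP after Cpd-60 as well as after SAHA. The rule with limma's p was passed by 10 of the 81, 2 for Cpd-60, 6 for SAHA and 2 for CI-994, and none of these survived the adjustment. With 3 pools against 3 an exact permutation test of a single gene cannot go below p = 0.1.

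**Figure D3:**
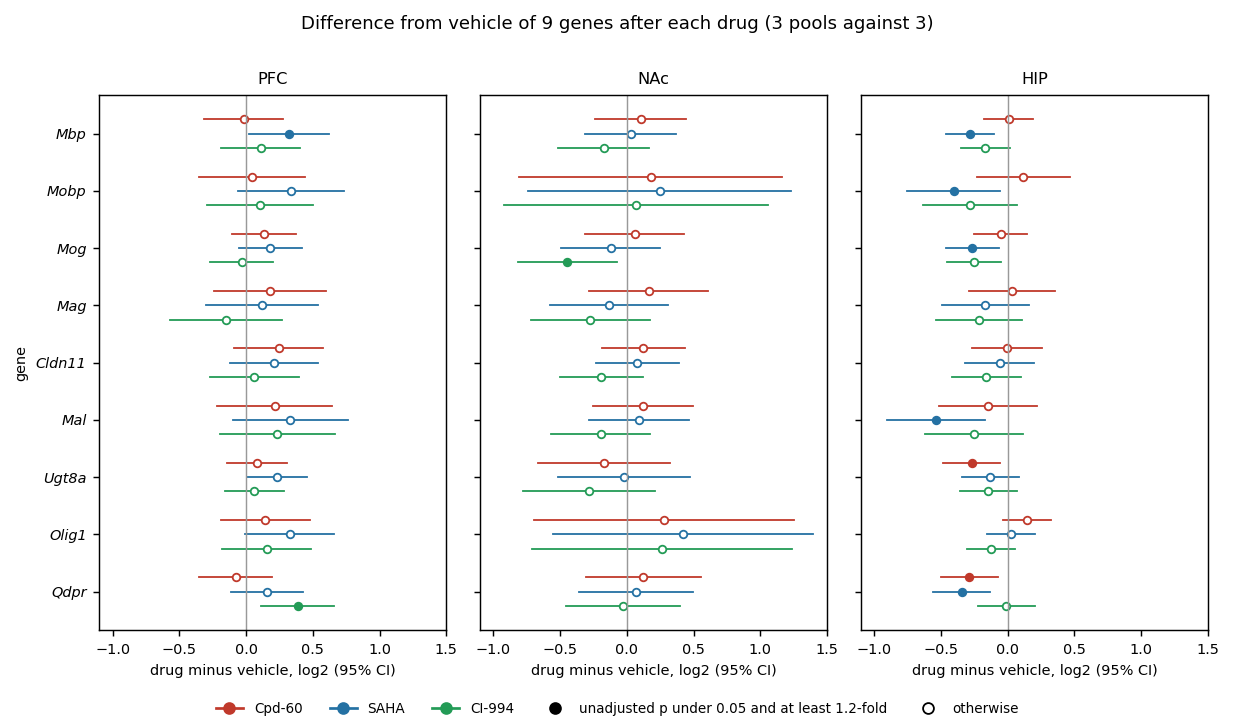
Drug minus vehicle difference in log2 intensity (x axis, with 95% interval) for the 9 genes (y axis) in 3 panels for PFC, NAc and HIP, with a colour for each drug and filled points for values with an unadjusted p under 0.05 and at least a 1.2-fold change. The SAHA points lie right of 0 in PFC for all 9 genes and left of 0 in HIP for 8 of 9.

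After Cpd-60 none of the 6 structural myelin genes passed the rule by its brightest probe. In PFC and NAc no member passed in either direction, beside 0.673% of all probes higher and 0.438% lower in PFC and 0.809% higher and 0.972% lower in NAc. The median difference of the 9 members was 0.13 in PFC, 0.12 in NAc and -0.00 in HIP, and with 1 pool number left out at a time it ran from -0.03 to 0.21, from -0.02 to 0.23 and from -0.14 to 0.05. Of the lineage list introduced above, 3 genes were higher by the same rule in PFC, namely Cnp (0.31), the tetraspanin Cd9 (0.38) and the adhesion protein Nfasc (0.32), and 3 in NAc, Cd9 (0.31), Sirt2 (0.33) and Lgi3 (0.45), while in HIP 2 were lower, the transcription factor Nkx6-2 (-0.34) and the myelin glycoprotein Omg (-0.36). For Mbp the 95% interval was -0.32 to 0.28 in PFC, -0.24 to 0.44 in NAc and -0.17 to 0.19 in HIP.

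In HIP 2 members were lower after Cpd-60, Ugt8a and Qdpr, beside 0.799% of all probes lower and 0.726% higher. Qdpr read 10.17, 10.07 and 10.10 in the Cpd-60 pools against 10.44, 10.36 and 10.41 in the vehicle pools, and Ugt8a read 8.67, 8.65 and 8.83 against 8.86, 9.12 and 8.98. For both genes all 3 Cpd-60 pools lay below all 3 vehicle pools. Qdpr differed by -0.29 ± 0.10 (SE, unadjusted p = 0.0118) and Ugt8a by -0.27 ± 0.10 (SE, unadjusted p = 0.0177). Ugt8a no longer passed without vehicle pool 2 (-0.20), Cpd-60 pool 1 (-0.25) or Cpd-60 pool 2 (-0.24), and with the mean of its probes it differed by -0.12. Under Tukey's test, as run here over all treatments, neither passed (p of 0.0951 for Qdpr and 0.128 for Ugt8a). The study's own Tukey test, run on fewer treatments, gave Qdpr as lower in HIP after Cpd-60. The paper also named Qdpr among the decreases that its quantitative PCR supported. Qdpr was a gene that the study had itself picked from these arrays, so its value here is no independent evidence. In PFC Qdpr read 9.32, 9.73 and 9.55, and in NAc 9.68, 9.59 and 10.02, overlapping vehicle in both, with differences of -0.08 (95% interval -0.35 to 0.19) and 0.12 (-0.31 to 0.55). The difference of Qdpr's Cpd-60 effect between regions did not pass an unadjusted p of 0.05.

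SAHA gave 5 members lower in HIP, beside 1.77% of all probes lower and 1.4% higher. Mbp read 13.07, 12.99 and 13.03 after SAHA against 13.30, 13.39 and 13.24 after vehicle, and Mog read 9.37, 9.29 and 9.22 against 9.38, 9.65 and 9.65. Both were lower in every SAHA pool than in any vehicle pool, Mog narrowly so for SAHA pool 1. Mobp read 10.78, 10.29 and 10.55 against 10.84, 11.17 and 10.83, and Mal read 9.43, 9.19 and 9.22 against 9.62, 9.92 and 9.91. Qdpr read 9.86, 10.14 and 10.18 against 10.44, 10.36 and 10.41. The 5 were picked by the rule on p and fold, so their separation from vehicle adds no support. The differences were -0.28 for Mbp (SE 0.08, unadjusted p = 0.0055), -0.41 for Mobp (SE 0.16, unadjusted p = 0.027), -0.26 for Mog (SE 0.09, unadjusted p = 0.0137), -0.54 for Mal (SE 0.17, unadjusted p = 0.0076) and -0.35 for Qdpr (SE 0.10, unadjusted p = 0.0039). The remaining 4, Mag, Cldn11, Ugt8a and Olig1, differed by -0.17, -0.06, -0.13 and 0.02 and overlapped vehicle. The median of the 9 was -0.26, beside -0.01 over all probes tested.

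SAHA pools 2 and 3 in HIP were the dim ones named above. Without them Mbp differed by -0.24, Mobp by -0.17, Mog by -0.19, Mal by -0.39 and Qdpr by -0.55. That leaves 1 SAHA pool, so whether a gene then passed the rule cannot show what the dim arrays did. With 1 pool number left out at a time, Mal passed throughout. Mbp missed the rule without vehicle pool 2 (-0.24) or SAHA pool 2 (-0.26), Mobp without vehicle pool 2 (-0.29), SAHA pool 2 (-0.28) or SAHA pool 3 (-0.41), and Qdpr without SAHA pool 1 (-0.25). Mog missed it without vehicle pool 2 or 3 or SAHA pool 2 or 3, at -0.26 to -0.22. The probes of a gene did not all go one way: the Mbp probe ILMN_3011353 read 8.57, 8.65 and 8.53 after SAHA against 8.40, 8.33 and 8.39, all above vehicle, and with the mean of a gene's probes Mbp differed by -0.15, Mal by -0.19 and Mobp by -0.24, none passing. Under Tukey's test Mobp, Mog and Mal did not pass. Within BeadChip a, which held SAHA pool 1 and vehicle pools 1 and 2, Mbp differed by -0.28, Mal by -0.34 and Qdpr by -0.54. Within BeadChip b, which held both dim pools and vehicle pool 3, the differences were -0.23, -0.71 and -0.25. Cldn11 and Mag turned sign between the BeadChips, from 0.14 and 0.07 on a to -0.27 and -0.38 on b. Of 8 astrocyte genes 1 was higher and 1 lower after SAHA in HIP, the latter Gfap, the astrocyte filament protein (-0.81), and the mean level of that list was 9.74 to 9.78 after SAHA and 9.81 to 9.88 after vehicle. The mean level of 6 microglial genes, none of which passed, was 7.80 to 7.82 after SAHA and 7.86 to 7.94 after vehicle, and that of 5 endothelial genes, none passing either, was 8.06 to 8.08 and 7.95 to 8.05. The part of array brightness or of other cells in these differences was not tested.

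The lineage list outside the members moved the same way in HIP after SAHA, with a median of -0.12. By the same rule 9 of 44 genes were lower and 0 higher, beside 1.77% of all probes lower and 1.4% higher. They included Fa2h, the hydroxylase of myelin lipids (-0.63), Trf (-0.43), the deacetylase Sirt2 (-0.43), Ndrg1 (-0.38), Lgi3 (-0.32), Bcas1 (-0.30), Adamts4 (-0.28) and Nkx2-2. The mean level of the list was 8.31 to 8.38 in the SAHA pools and 8.41 to 8.52 in the vehicle pools. This was not particular to SAHA: after CI-994 the median of the list in HIP was -0.11, with 2 of 44 genes lower. The CI-994 pools had mean levels of 8.31 to 8.40, also below all vehicle pools. Of 5 precursor genes none passed.

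In PFC all 9 members were higher than vehicle after SAHA, with a median of 0.23, so that 8 of 9, all but Olig1, had opposite signs in PFC and HIP. Within BeadChip b, though, Mag (-0.34) and Cldn11 (-0.14) were below vehicle in PFC too, and within a Qdpr was (-0.05). In PFC 1 member passed the rule, Mbp, beside 0.144% of all probes higher and 0.0722% lower. Mbp read 12.62, 12.65 and 12.35 against 12.34, 12.08 and 12.23, the lowest SAHA pool lying just above the highest vehicle pool, a difference of 0.32 ± 0.14 (SE, unadjusted p = 0.0357). It no longer passed without vehicle pool 2 (0.26), vehicle pool 3 (0.33), SAHA pool 1 (0.28) or SAHA pool 2 (0.27), nor with the BeadChip as a block (0.27) or under neqc, another normalization (unadjusted p = 0.068), or Tukey's test (p of 0.263), and with the mean of its probes it differed by 0.10. Ugt8a (8.24, 8.15 and 8.17) and Olig1 (9.36, 9.51 and 9.42) also lay above vehicle in every pool, with differences of 0.23 (unadjusted p = 0.043, under 1.2-fold) and 0.33 (unadjusted p = 0.054). In NAc no member passed, beside 0.151% higher and 0.396% lower, and the median was 0.07, running from -0.04 to 0.20 with 1 pool number left out at a time. Of the lineage list 1 gene, Trf (0.29), was higher in PFC and none differed in NAc.

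The SAHA effect was compared between regions directly. It was lower in HIP than in PFC for all 9 members, with a median difference of effects of -0.45, and it passed an unadjusted p of 0.05 for Mbp (-0.60 ± 0.19 SE, unadjusted p = 0.0043), Mal (-0.87, unadjusted p = 0.0046), Mog (-0.45, unadjusted p = 0.026) and Qdpr (-0.50, unadjusted p = 0.029), where 4.91% of all probes had such a p. None passed the adjustment over all probes (limma adjusted p = 0.962 for Mbp), where 0% of all probes were called. Between HIP and NAc it passed for Mal alone among the 9 (-0.63, unadjusted p = 0.033), beside 7.01% of all probes.

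CI-994 gave 1 member higher in PFC, Qdpr, beside 0.334% of all probes higher and 0.32% lower. Qdpr read 9.74, 10.14 and 10.12 after CI-994 against 9.63, 9.69 and 9.52 after vehicle. Every CI-994 pool lay above every vehicle pool, pool 1 only slightly, and the difference was 0.39 ± 0.13 (SE, unadjusted p = 0.0092). Within BeadChip a it was 0.08 and within b 0.60, and under Tukey's test it did not pass (p of 0.108). In NAc (9.78, 9.46 and 9.60) and HIP (10.34, 10.59 and 10.25) Qdpr overlapped vehicle, with differences of -0.03 and -0.01.

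In NAc 1 member was lower after CI-994, Mog, beside 0.297% of all probes lower and 0.0861% higher. Mog read 8.50, 8.29 and 8.49 against 9.26, 8.82 and 8.53, so that all CI-994 pools lay below vehicle, pool 1 narrowly below vehicle pool 3, and the difference was -0.45 ± 0.17 (SE, unadjusted p = 0.0227). Without vehicle pool 1, the highest of the group, it no longer passed (-0.25, unadjusted p = 0.0987), nor without CI-994 pool 2 (-0.38, unadjusted p = 0.0776), nor under Tukey's test (p of 0.154). The median of the 9 in NAc was -0.19, running from -0.25 to -0.06 with 1 pool number left out at a time. In HIP 0 members passed, beside 0.395% lower and 0.275% higher, although all 9 differences were below 0, with a median of -0.17. Mog there read 9.34, 9.36 and 9.22, all below vehicle, and with -0.25 (unadjusted p = 0.017) it was just under a 1.2-fold change. Of the lineage list Anln (-0.34) and Lgi3 (-0.29) were lower in HIP after CI-994 and none was higher, Anln (-0.35) was lower in NAc, and in PFC Cnp (0.32) was higher and Omg (-0.28) and the creatine synthesis enzyme Gamt (-0.36) were lower.

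A single Mobp probe, ILMN_1223628, stood apart from the brightest probe of each gene after Cpd-60. In PFC it read 8.45, 8.60 and 9.09 after Cpd-60 against 8.12, 8.13 and 8.46 after vehicle, and in NAc 9.77, 9.74 and 9.41 against 9.49, 9.15 and 8.66. In HIP it read 9.95, 9.83 and 9.89 against 9.15, 9.28 and 9.56. The Cpd-60 pools were all above vehicle in HIP and overlapped it slightly in the other regions. The differences were 0.48 ± 0.18 (SE, unadjusted p = 0.0223), 0.54 ± 0.18 (unadjusted p = 0.0128) and 0.56 ± 0.09 (unadjusted p = 6.8e-05), with limma adjusted p of 0.923, 0.999 and 0.527. In PFC it no longer passed without vehicle pool 1 (0.42), vehicle pool 2 (0.42) or Cpd-60 pool 3 (0.29). Within BeadChips a and b it was 0.40 and 0.64 in PFC and 0.67 and 0.33 in HIP. None of the other 4 Mobp probes passed after Cpd-60 in any region, and after CI-994 the same probe differed by -0.08, -0.38 and -0.22. It was singled out after its values were seen, and which Mobp transcript it meets was not tested.

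**Figure D4:**
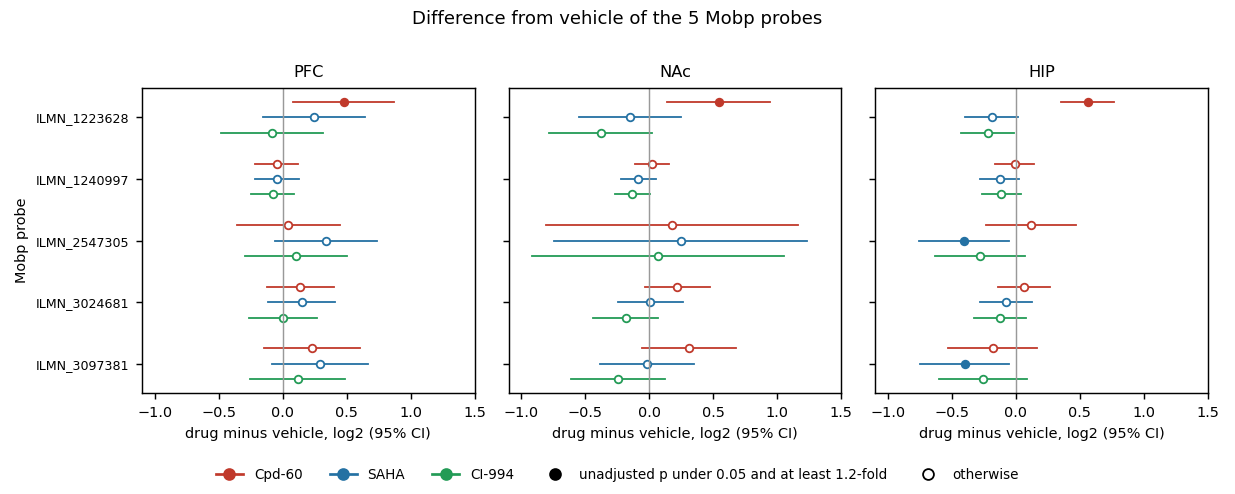
Drug minus vehicle difference in log2 intensity (x axis, with 95% interval) for the 5 Mobp probes (y axis) in PFC, NAc and HIP, coloured by drug, with filled points for values past the unadjusted 1.2-fold rule. The Cpd-60 points of ILMN_1223628 are filled in all 3 panels, at 0.48, 0.54 and 0.56, and those of the other 4 probes are open.

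After quantile normalization the 9 members varied between pools more than the median probe did. Their SD over the 3 pools of a group, pooled over treatments, had a median of 0.224 in PFC, 0.266 in NAc and 0.131 in HIP, against 0.103, 0.121 and 0.102 over all probes tested, and each of the 9 was above the median of all probes in each region. This depended on the normalization and on the detection filter. Under neqc the medians were 0.232, 0.293 and 0.156 against 0.215, 0.249 and 0.215. There 5, 7 and 3 of the 9 were above the median of all. With a detection p of at most 0.01 the median of all probes was 0.119, 0.152 and 0.120. Under that filter 9, 9 and 6 of the 9 were above it. The mean deviation of the 9 from their group mean ran from -0.21 to 0.21 in PFC (both Cpd-60 pools), from -0.23 to 0.37 in NAc and from -0.13 to 0.11 in HIP (both vehicle pools). In NAc vehicle pool 1 was at 0.23 and held the highest vehicle level of 7 members, whereas Mobp and Olig1 were highest in pool 3. What share of white matter each pool held was not measured.

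The members' deviations within groups were compared with each other. Over the 36 arrays, the deviation of a member correlated with the mean deviation of the other 8 with r from 0.40 (Qdpr and Mag) to 0.75 (Ugt8a), and r for the 36 pairs of members ran from -0.01 to 0.93 with a median of 0.37. Over the 12 arrays of a region, r ran from 0.30 to 0.88 in PFC and from 0.33 to 0.81 in NAc, but in HIP it was -0.20 for Qdpr, -0.06 for Mag and 0.17 for Mbp, and 0.31 to 0.72 for the other members. The points share arrays and the normalization, so these are descriptions. Of all other probes, the 10 whose deviations were most like the mean of the 9 members included those of Tspan2 (r = 0.88), Bcas1 (0.82), Trf (0.80), Maml1 (0.78), Pigh (0.77), Slc8a1 (0.76), Elavl2 (0.74), Ptprd (0.74) and Bdh2 (0.74), over 36 arrays. Tspan2, Bcas1 and Trf stood on the lineage list.

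In NAc 3 of 21 member probes differed between the BeadChips, all 3 higher on b. This share was not far from that of all probes, of which 11.6% were called higher on b and 11.3% lower. Olig1 read 9.59 to 9.99 on the 6 arrays of BeadChip a and 10.42 to 11.20 on the 6 of b, and the brightest Mobp probe read 9.12 to 9.66 and 10.16 to 10.75. The Mal probe ILMN_1248947 read 7.21 to 7.77 and 8.55 to 9.09. For none of the 3 probes did the BeadChips overlap. With treatment in the model, b exceeded a by 1.00 ± 0.12 (SE) for Olig1 (limma adjusted p = 1.1e-04), 1.04 ± 0.10 for Mobp (adjusted p = 1.8e-05) and 1.32 ± 0.10 for the Mal probe (adjusted p = 5.0e-06). No other member probe was called in NAc, and none was in PFC, where 0.144% and 0% of all probes were called higher and lower, or in HIP, where 0.163% and 1.03% were. Of the choroid plexus genes, though, 4 of 5 were called lower on b in HIP, with a median of -0.51 over the 5, and the cause was not tested. Of the 3 probes called in NAc, some passed limma's unadjusted p under 0.05 elsewhere. In PFC b less a was 0.32 for Olig1 and 0.36 for Mobp, and in HIP -0.29 for Mobp and -0.64 for the Mal probe. Olig1 in HIP (-0.05) and the Mal probe in PFC (0.12) did not pass. Within BeadChips the pooled SD in NAc fell from 0.617 to 0.228 for Olig1 and from 0.624 to 0.185 for Mobp. Because the same pairs of mice lay on a and on b in each region, BeadChip, mice and dissection cannot be told apart within NAc or HIP.

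**Figure D5:**
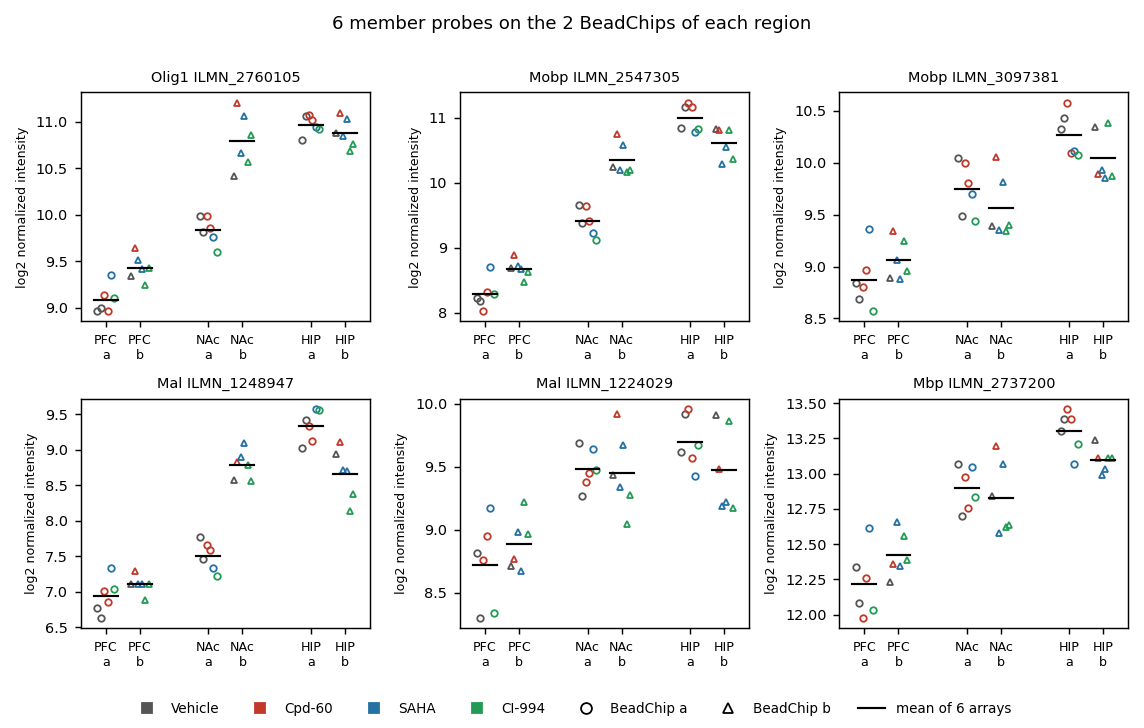
Log2 normalized intensity (y axis) of 6 member probes on BeadChips a and b of each region (x axis), coloured by treatment, with a line at the mean of 6 arrays. The NAc points of Olig1, of the brightest Mobp probe and of 1 Mal probe form separate groups on a and b, and those of PFC and HIP do not.

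These same 3 probes also had the largest differences between HIP and PFC under vehicle, 1.81 for Olig1, 2.58 for Mobp and 2.28 for the Mal probe. In the lineage list Enpp2 (1.18), which was also higher in HIP than in PFC, was among 5 genes higher on b in NAc, and 4 were lower. Of Qdpr's pathway Pts was higher on b by 0.35 and the reductase Spr lower by 0.35, while Qdpr itself was not called.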

How the data were processed

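RNA from 3 pools of 2 mice for each of 12 groups of region and treatment was measured on Illumina MouseWG-6 arrays. The authors deposited a table of non-normalized probe intensities, beside which stands the array software's detection p-value, and the methods describe quantile normalization in GeneSpring. The intensities of all 36 arrays were here quantile-normalized together, floored at 1 and taken to log2 with limma 3.58.1 in R 4.3.3. Probes with a detection p of at most 0.2 in 3 of 3 arrays of a group were tested with limma's lmFit and eBayes, two-sided, with Benjamini-Hochberg adjustment over all probes tested. Drugs were compared with vehicle within a region on 12 arrays, and regions and differences of drug effects on all 36 arrays. Each gene is given by its brightest tested probe, and the number of arrays limits precision. The members and gene lists were chosen with earlier results of these data known. Groups came from sample titles, and for 1 Cpd-60 pool a second label named other mice. The tests were tried on simulated data. By the sample titles each pool had 1 array in each region, so p-values measure the spread between pools and between arrays together. Same-numbered pools were the same mice in each region, by their titles, and their deviations from group means correlated with r of -0.46 to 0.56 (median -0.02) over 36 pairs of arrays. Alternatives were neqc, stricter and no detection filters, BeadChip and replicate blocks, and arrays left out in turn. Another was analysis of variance with Tukey's test, the methods' test, run here over all 4 treatments and in the study without CI-994. Some genes of the lists are not reported here by name.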

Additional observations from a re-analysis of the deposited data

Results flagged for a closer look

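The SAHA effect on Mbp differed between HIP and PFC by -0.60 on the log2 scale (SE 0.19, unadjusted p = 0.0043, limma adjusted p = 0.962 over all probes). It drew attention because every SAHA pool lay above every vehicle pool in PFC and below every vehicle pool in HIP. With the BeadChip as a block the SAHA differences of Mbp were 0.27 in PFC (unadjusted p = 0.066) and -0.23 in HIP (unadjusted p = 0.0047, under 1.2-fold). The 2 dim SAHA arrays lay in HIP, and their part in the difference was not tested.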

How the results depend on the processing

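The direction of every called value held under all alternatives run, and no drug difference of a member passed the adjusted threshold under any of them (lowest adjusted p 0.0867, without vehicle replicate 3). The counts of member and region pairs past the 1.2-fold rule, 2 for Cpd-60, 6 for SAHA and 2 for CI-994 of 27 each, became 0, 2 and 0 under analysis of variance with Tukey's test. With the mean of a gene's probes they became 1 for Cpd-60 and 3 for SAHA. Leaving out 1 pool number at a time gave 1 to 3 for Cpd-60, 2 to 7 for SAHA (2 without vehicle replicate 2 or SAHA replicate 2) and 2 to 4 for CI-994 (4 without CI-994 replicate 1). The median of the 9 members in HIP then ran from -0.14 to 0.047 for Cpd-60 and from -0.31 to -0.13 for CI-994, both lowest without vehicle replicate 1. Among vehicle pools, 9 members stayed called in HIP against PFC, 3 to 7 in NAc against PFC (3 without vehicle replicate 1, 4 without replicate 2) and 2 to 6 in HIP against NAc (2 without vehicle replicate 2, 3 without replicate 3). Same-numbered Cpd-60 and vehicle pools lay on the same BeadChip. Their deviations correlated with r of 0.17 to 0.58 in PFC, 0.33 to 0.72 in NAc and 0.05 to 0.47 in HIP. Over all drugs and regions r ran from -0.44 to 0.72. The replicate block let Mobp (0.34, unadjusted p = 0.0286) and Olig1 (0.33, unadjusted p = 0.0160) pass in PFC after SAHA and moved no count by over 1.5 times. With the pool of mice as a replicate block between regions, Mbp was no longer called in HIP against NAc (adjusted p = 0.061) and Olig1 was (adjusted p = 0.031). The cause of these changes was not tested. Dim probes near background limit the second probes of Mag, Mal, Ugt8a and Mobp.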
